A study of Mus musculus with 6 samples.

Results

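Toll-like receptors detect microbial and self-derived molecules, and their co-receptors load or present the ligand. The genes described here are 8 receptors (Tlr1, Tlr2, Tlr3, Tlr4, Tlr6, Tlr7, Tlr9 and Tlr13) and 2 co-receptors (Cd14 and Ly96), chosen by gene symbol from a table of 15388 genes, and all 10 were in the table. RNA came from hippocampus of 3 mice, numbered 201, 207 and 208, with the genotype Cx3cr1-Cre/Ert2+; NuTRAP+. The Cx3cr1 promoter drives a Cre recombinase that needs tamoxifen, and recombined cells make a GFP-tagged ribosomal protein. The mice were about 3 months old when they were given tamoxifen. After translating ribosome affinity purification (TRAP), each mouse gave 1 Input library, from the cleared homogenate, and 1 Positive library, from ribosomes pulled down with anti-GFP. Both fractions therefore shared genotype, tamoxifen and animal, no mouse without Cre was analysed here, and the unbound fraction was not analysed here. Cx3cr1 is expressed by microglia and also by macrophages at the borders of the brain, so the tag is not limited to 1 cell type.

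Tlr1, Tlr2, Tlr4 and Tlr6 act at the cell surface, where Tlr2 pairs with Tlr1 or Tlr6 to bind bacterial lipopeptides and Tlr4 binds lipopolysaccharide. Tlr3, Tlr7, Tlr9 and Tlr13 act in endosomes on double-stranded RNA, single-stranded RNA, unmethylated CpG DNA and bacterial ribosomal RNA. Cd14 hands lipopolysaccharide to the complex of Tlr4 with Ly96 (also called MD-2), and most of these receptors signal through the adaptor Myd88, whereas Tlr3 signals through Ticam1 (TRIF). In the brain, microglia are known as the main cells that carry many of them.

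Sequence bears on the counts of 1 receptor pair. Tlr1 (chr5:64924679-64933563) and Tlr6 (chr5:64952031-64960097) are neighbours on the minus strand of mm10, 18.467 kb apart, and their coding sequences of 2388 bases were 74.4% identical when aligned. Along the Tlr1 coding sequence, identity was 60.6% in bases 1 to 597, 55.3% in 598 to 1194, 92.1% in 1195 to 1791 and 89.6% in 1792 to 2388. Of 3336 distinct windows of 42 bases in the Tlr1 transcripts, the length left of a read after fixed trimming, 513 were also in Tlr6. The longest identical stretch has 229 bases, lies in the single coding exon of each gene (chr5:64925537-64925765 in Tlr1 and chr5:64953828-64954056 in Tlr6, minus strand, GRCm38.p6 from RefSeq), and is shown because a read inside it could come from either gene:
Tlr1 and Tlr6: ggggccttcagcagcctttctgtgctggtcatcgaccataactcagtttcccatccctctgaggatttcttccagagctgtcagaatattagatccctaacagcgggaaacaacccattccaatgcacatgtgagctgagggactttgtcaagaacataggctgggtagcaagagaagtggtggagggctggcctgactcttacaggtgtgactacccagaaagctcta
The levels of Tlr1 and Tlr6 are uncertain by the reads that fall in such stretches, and how the counting treated those reads was not tested. The transcripts of Tlr2, Tlr3, Tlr7, Tlr9, Tlr13, Cd14 and Ly96 shared 0 such windows with another gene, and those of Tlr4 shared 9. Only exact matches were counted, while the authors' alignment allowed mismatches and gaps, and the mate of a read was not considered. The windows are therefore not a measure of how many reads were ambiguous.

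Of the 10 genes, 6 had entries in a RefSeq promoter table (GRCm38.p6, 250 bases before and 50 after each start). These were 8 promoters in all, as Tlr1 and Tlr6 each had another start. The letters GAGGAAGT, which the myeloid factor PU.1 can bind, occurred on either strand in a window of Tlr1 and of Tlr9. They occurred in 3.20% of all 32851 promoters, or in 3.69% of the 27025 genes with a promoter. The letters are in capitals in these 30-base windows, the first at chr5:64933563-64933592 (minus strand, with the match beginning 23 bases before the start), the second at chr9:106222597-106222626 (plus strand, with an antisense match beginning at base 11 of the transcript):
Tlr1: attaaatgttgGAGGAAGTaggagcttgaa
Tlr9: gtgaaagtgtcACTTCCTCaattctctgag
The AP-1 letters TGANTCA occurred in Tlr9, against 7.81% of all promoters (8.97% of genes). Letters of interferon regulatory factors, GAAANNGAA, occurred in Tlr6, as a pair of overlapping antisense matches, against 8.56% of all promoters (9.76% of genes). These 250 bases before the starts of Tlr9 (chr9:106222348-106222597, plus strand) and Tlr6 (chr5:64959167-64959416, minus strand) show them in capitals:
Tlr9: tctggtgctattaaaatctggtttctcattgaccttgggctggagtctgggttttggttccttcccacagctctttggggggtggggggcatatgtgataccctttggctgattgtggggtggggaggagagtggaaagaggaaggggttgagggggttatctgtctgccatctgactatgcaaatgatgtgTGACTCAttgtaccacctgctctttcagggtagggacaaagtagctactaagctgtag
Tlr6: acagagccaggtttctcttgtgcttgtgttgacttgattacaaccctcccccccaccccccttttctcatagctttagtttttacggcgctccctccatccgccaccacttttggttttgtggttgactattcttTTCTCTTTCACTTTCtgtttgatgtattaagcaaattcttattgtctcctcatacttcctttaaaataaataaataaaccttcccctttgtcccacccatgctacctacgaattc
None of the 3 motifs was found in the windows of Tlr2, Tlr3 and Tlr13, or at the other starts of Tlr1 and Tlr6. A match describes letters only and is not a binding site that was measured.

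All 10 genes were higher in Positive than in Input, by 1.93-fold (Tlr3) to 42.1-fold (Tlr6), with a median log2 fold change of 4.25 against -0.01 over the 15343 genes tested. The test was edgeR's quasi-likelihood test on rounded counts with n = 3 per fraction, and a gene was called where its p-value, adjusted by Benjamini-Hochberg over all genes tested, was under 0.05. Of all genes tested, 24.0% were called higher and 22.0% lower, and 52.2% of calls were higher (41.6% under scaling to the total count). In each of the 10 genes every Positive library was above every Input library, which held for 28.9% of all genes tested. Of the 10, 8 were called higher by over 5-fold, against 3.75% of all genes tested. Only Tlr3, Tlr7 and Cd14 passed the filter on low values (over 20 scaled reads in all libraries of 1 fraction or of both) by their Input level. The other 7 entered through Positive alone, with at least 1 Input library at 20 scaled reads or fewer, a route that favours genes higher in Positive. The counts over the 10 genes, and the calls and p-values of these 7, are therefore a description. Scaled reads are reads divided by a size factor for each library, which ranged from 0.953 to 1.08 for libraries of 14879734 to 17757918 reads. In bulk RNA, fewer cells of a type and less RNA per cell cannot be told apart.

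**Figure D1:**
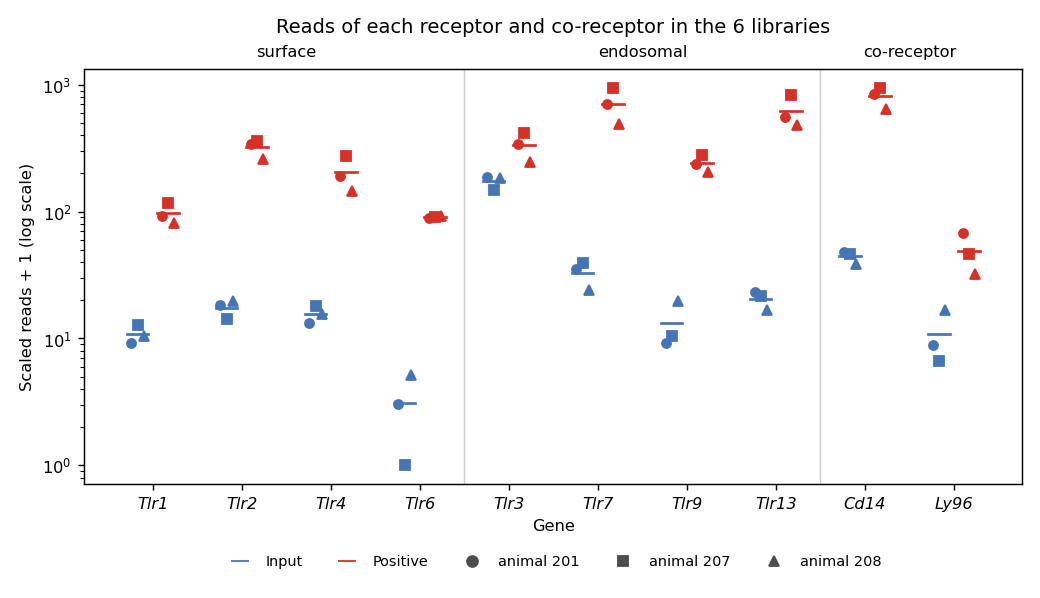
Scaled reads plus 1 (log axis) of the 10 genes in the 3 Input (blue) and 3 Positive (red) libraries; symbols mark the animal and short bars the group mean. The 2 fractions are apart for each gene, least for Tlr3 (147.5 to 187.7 against 246.1 to 414.8 scaled reads).

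Among the surface receptors, Tlr2 had the highest level. All 4 passed the filter on low values through Positive alone, so their calls and p-values are a description. Tlr2 (chr3:83836272-83841767) had 17.3, 13.2 and 18.9 scaled reads in Input of animals 201, 207 and 208, and 337.8, 361.8 and 258.6 in Positive. The fractions were far apart, with a log2 fold change of 4.28 ± 0.22 (SE), or 19.4-fold (edgeR adjusted p = 6.26e-09). Its partner Tlr1 had 8.16, 11.7 and 9.44 scaled reads in Input and 92.0, 115.3 and 80.5 in Positive. That is a log2 fold change of 3.30 ± 0.29 (SE), or 9.84-fold (edgeR adjusted p = 1.02e-06), the lowest of the 4 surface receptors. The other partner, Tlr6, had 2.04, 0 and 4.20 scaled reads in Input, from 6 reads in all, and 87.5, 90.2 and 91.4 in Positive, where the 3 animals were nearly level. Its log2 fold change was 5.40 ± 0.45 (SE; edgeR adjusted p = 6.71e-07), and the few Input reads set its size, since it was 27.8-fold without Input 207 and 81.4-fold without Input 208. Tlr4 (chr4:66827584-66930284), the lipopolysaccharide receptor, had 12.2, 16.9 and 14.7 scaled reads in Input and 188.5, 275.3 and 144.4 in Positive. Animal 207 was highest in both fractions, and the log2 fold change was 3.78 ± 0.29 (SE), or 13.7-fold (edgeR adjusted p = 3.40e-07).

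Of the endosomal receptors, Tlr7, Tlr9 and Tlr13 were higher by 19.7- to 31.4-fold, and Tlr3 by 1.93-fold. Tlr9 and Tlr13 passed the filter on low values through Positive alone, so their calls and p-values are a description. Tlr7 (chrX:167304929-167330558) had 34.1, 38.5 and 23.1 scaled reads in Input and 702.2, 939.8 and 485.8 in Positive. The log2 fold change was 4.47 ± 0.26 (SE), or 22.1-fold (edgeR adjusted p = 2.18e-08). Tlr13 (chrX:106143204-106160493), which humans lack, had 22.4, 20.7 and 15.7 scaled reads in Input and 555.7, 829.4 and 476.9 in Positive, with a log2 fold change of 4.97 ± 0.25 (SE; edgeR adjusted p = 5.34e-09). Tlr9 (chr9:106222598-106226883) had 8.16, 9.40 and 18.9 scaled reads in Input and 234.7, 280.9 and 203.6 in Positive, with a log2 fold change of 4.30 ± 0.27 (SE), or 19.7-fold (edgeR adjusted p = 5.05e-08). In Tlr9, animal 208 was highest in Input and lowest in Positive. Tlr3 (chr8:45395665-45411080) stood apart from the other endosomal receptors in Input, where it had 187.7, 147.5 and 183.6 scaled reads, against 339.9, 414.8 and 246.1 in Positive. Its fractions did not overlap but were close, with a log2 fold change of 0.95 ± 0.18 (SE; edgeR adjusted p = 0.00107). Within each animal, log2 Positive over Input of Tlr3 was below that of Tlr7, with differences, Tlr3 minus Tlr7, of -3.47, -3.09 and -3.92 and a mean of -3.49 ± 0.41 (SD, n = 3). Tlr3 overlaps the gene Gm45542 on the other strand, and reads were aligned with strand.

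The co-receptors differed in size. Cd14 (chr18:36725074-36726736) had 46.9, 45.3 and 37.8 scaled reads in Input and 852.3, 936.3 and 646.2 in Positive. Cd14 had the smallest standard error of the 10, with a log2 fold change of 4.22 ± 0.17, or 18.7-fold (edgeR adjusted p = 9.00e-10). Ly96 (chr1:16688051-16709611) had 7.94, 5.64 and 15.7 scaled reads in Input and 66.9, 45.6 and 31.2 in Positive. Animal 208 had the highest Input and the lowest Positive value, and log2 Positive over Input was 2.93, 2.81 and 0.94 in animals 201, 207 and 208. The fitted log2 fold change of Ly96 was 2.29 ± 0.41 (SE), or 4.88-fold (edgeR adjusted p = 0.000568). Ly96, unlike Cd14, passed the filter on low values through Positive alone, so its call is a description. The ratio of Ly96 to Tlr4, each per kb, was 3.53, 1.81 and 5.83 in Input and 1.93, 0.90 and 1.17 in Positive, lower in Positive in each animal, with ranges that overlapped. The ratio of Cd14 to Tlr4 per kb had a mean of 9.71 in Input and 13.3 in Positive.

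The receptor genes Tlr5 and Tlr12 were also in the table, and Tlr8 and Tlr11 were not analysed here. Tlr5, which binds flagellin, had 0, 1.88 and 4.20 scaled reads in Input and 54.6, 58.6 and 24.9 in Positive, with a log2 fold change of 4.44 ± 0.59 (SE), or 21.8-fold, which became 42.1-fold without Input 208. Tlr12, which binds the parasite protein profilin, had 2.04, 15.03 and 16.8 scaled reads in Input and 209.1, 185.1 and 171.4 in Positive, with a log2 fold change of 4.04 ± 0.36 (SE). Both were called higher, and both passed the filter on low values through Positive alone, which favours genes higher there, so these calls are a description.

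The receptor genes were set beside 10 microglial markers, among them Cx3cr1, whose promoter drives the tag, P2ry12, Tmem119, C1qa and Aif1. All 10 markers were called higher, with log2 fold changes of 4.16 to 4.82. Of the 10 receptor and co-receptor genes, 4 lay within that range (Tlr2, Tlr7, Tlr9 and Cd14), 2 above it (Tlr6 and Tlr13) and 4 below it (Tlr1, Tlr4, Tlr3 and Ly96). The border macrophage markers ran from 3.76 to 4.48. Because the 2 marker ranges overlap, a place within the microglial range does not tell which of these cells carried the RNA. Relative to the marker median of the same animal, log2 Positive over Input was lower in each of the 3 animals for 7 genes. The mean differences from the marker median were -3.73 ± 0.23 (SD) for Tlr3, -2.43 ± 0.92 for Ly96, -1.49 ± 0.28 for Tlr1 and -0.99 ± 0.22 for Tlr4, and smaller for Cd14 (-0.47 ± 0.17), Tlr2 (-0.46 ± 0.20) and Tlr7 (-0.24 ± 0.19). For Tlr13 the mean was 0.23 ± 0.24 (SD), which is no larger than the spread between animals. The same held for Tlr6 (0.52 ± 0.90) and Tlr9 (-0.38 ± 0.58), and the place of Tlr6 above the marker range rests on 6 Input reads.

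**Figure D2:**
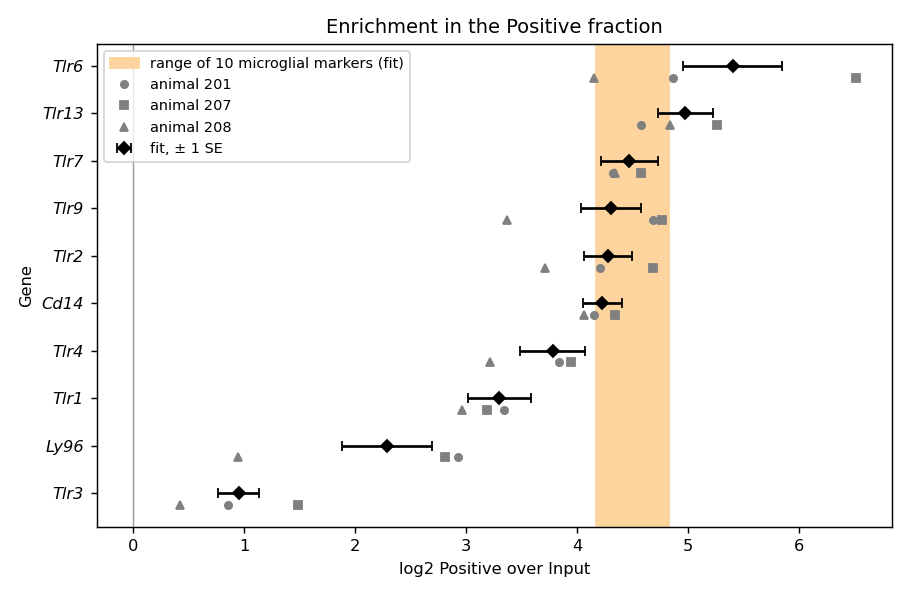
Log2 Positive over Input of the 10 genes, as fitted values with 1 SE (diamonds) and as the value of each animal with a pseudocount of 1 (grey symbols); the shaded band is the range of fitted values of 10 microglial markers (4.16 to 4.82). Tlr3 (0.95) and Ly96 (2.29) lie farthest to the left of the band.

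The 3 animals differed together. The median log2 Positive over Input of the 10 genes was 4.18 in animal 201, 4.46 in 207 and 3.54 in 208, animal 207 was highest for 8 of them, and animal 208 was lowest for 8. The Positive library of animal 208 also stood apart on the second principal component of all genes, at -29.4 against 18.2 and 9.45. In that library the summed scaled reads of the microglial markers were lowest (98244, against 119472 and 145169), as were those of the endothelial (3783, against 7429 and 5974), mural (1877, against 3719 and 3304), monocyte (923.6, against 1729 and 1551), lymphocyte, border macrophage, astrocyte and oligodendrocyte markers, while those of the neuronal markers were highest (164245, against 136574 and 135033). The monocyte sum was mostly Fn1 (1528, 1532 and 790 raw reads in Positive of animals 201, 207 and 208). The median log2 ratio was 2.21, 2.26 and 1.17 in animals 201, 207 and 208 for the endothelial markers and 0.14, 0.14 and -0.95 for the mural markers. The part of these shifts in the lower ratios of animal 208 was not tested. Without Positive 208, all 10 genes were called higher, with a median log2 fold change of 4.39.

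The makeup of the receptor family was compared as the share of each of the 10 receptor genes in their summed scaled reads per kb of exon, a measure that does not depend on scaling between libraries. Tlr3 was the largest share in each Input library, at 56.7%, 46.2% and 51.1%, and only 9.22%, 9.03% and 8.52% in Positive. Its mean share went from 51.3% ± 5.26 in Input to 8.92% ± 0.36 in Positive (SD, n = 3). Tlr7 held the largest share in each Positive library, with a mean of 23.9% ± 2.35 against 12.2% ± 3.69 in Input. Tlr13 had 20.01% ± 1.81 in Positive and 7.11% ± 1.58 in Input, and Tlr2 14.96% ± 1.19 and 8.42% ± 1.12. For these 4 genes, Tlr9 and Tlr6 the fractions did not overlap, and the exact two-sided permutation test gave p = 0.1, the smallest that 3 against 3 can reach (0.167 adjusted over the 10 genes). Of these 10 genes, only Tlr3 and Tlr7 passed the filter on low values by their Input level, and the others were included through Positive alone, which favours genes higher there. Shares within a library also add up to a fixed total, so the changes in share are not independent of each other. They are a description, and Tlr3 itself was 1.93-fold higher in Positive. The shares of Tlr1 (4.55% ± 1.025 in Input, 4.04% ± 0.25 in Positive, exact permutation p = 0.7), Tlr4, Tlr5 and Tlr12 overlapped between fractions. For Tlr4 (4.09% ± 0.78 in Input, 5.03% ± 0.51 in Positive) the fractions no longer overlapped without Input 207, or when reads were not divided by length (5.02% ± 1.025 and 7.03% ± 0.63, exact permutation p = 0.1). The 3 endosomal receptors other than Tlr3 held 24.7% ± 3.15 of the family in Input and 53.7% ± 2.95 in Positive, and Tlr1, Tlr2, Tlr4 and Tlr6 together 17.9% ± 0.71 and 27.5% ± 1.53.

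**Figure D3:**
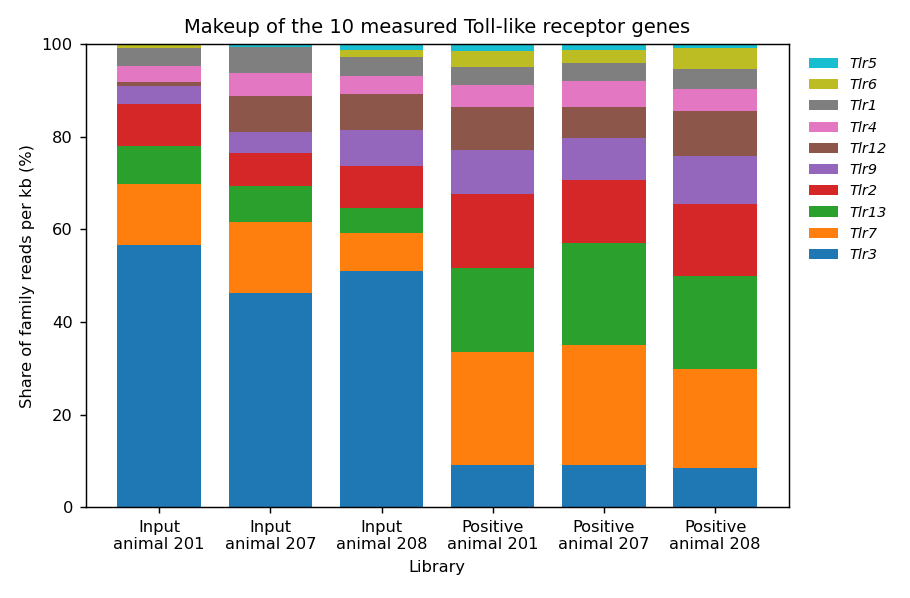
Share (%) of each of the 10 measured Toll-like receptor genes in the summed scaled reads per kb of the family, as 1 stacked bar for each library. Tlr3 (lowest block) fills 46.2% to 56.7% of the 3 Input bars and 8.52% to 9.22% of the 3 Positive bars.

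Levels between genes were compared per kb of exon. In Positive, Cd14 led with 468.6 ± 86.2 scaled reads per kb (SD, n = 3), followed by Tlr7 (173.8 ± 55.6), Tlr13, Tlr2, Tlr9, Tlr3 (64.1), Tlr12, Ly96, Tlr4, Tlr1, Tlr6 (24.1) and Tlr5 (9.61). Of the 11 pairs of neighbours in that order, the ranges of the 3 libraries were apart only between Cd14 and Tlr7, Tlr2 and Tlr9, and Tlr6 and Tlr5. In Input the order began with Tlr3 (33.2 scaled reads per kb), Cd14 (25.0), Ly96 (9.57) and Tlr7 (7.82). There the ranges were apart between Tlr3 and Cd14, Cd14 and Ly96, and Tlr4 and Tlr6. The levels of Tlr1 and Tlr6 carry the uncertainty of their shared sequence.

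**Figure D4:**
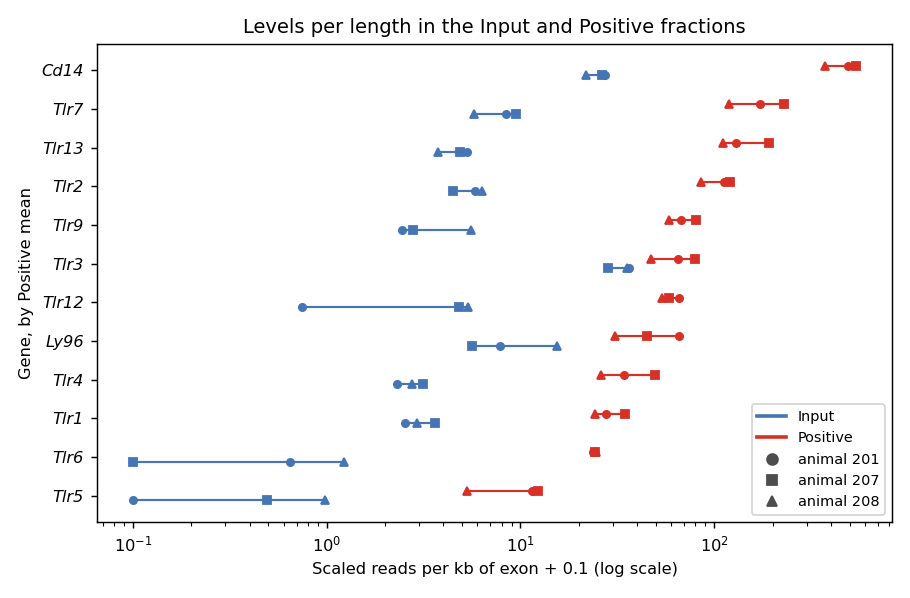
Scaled reads per kb of exon plus 0.1 (log axis) of the 10 genes and of Tlr5 and Tlr12, with a symbol for each animal and a line over the range of the 3 libraries of a fraction (blue, Input; red, Positive). In Input Tlr3 and Cd14 (33.2 and 25.0 scaled reads per kb) lie to the right of the rest, and in Positive Cd14 (468.6) does.

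For each gene but Tlr2 the most similar profile among genes with at least 50 scaled reads on average was taken by Euclidean distance over the 6 libraries, on centred log2 values. It was Pde3b for Tlr1 (distance 0.08), Cd68 for Cd14 (0.12), Ldlrad4 for Tlr3 (0.15), F13a1 for Tlr7 (0.18), Bmf for Tlr4 (0.19), Ly86 for Tlr13 (0.31), P2ry6 for Tlr9 (0.42), Tek for Ly96 (0.51) and Hhex for Tlr6 (1.11). With 3 animals these distances mostly follow the size of the enrichment. Tek, which encodes an endothelial receptor, had a log2 fold change of 2.26. F13a1, which is among the border macrophage markers used here, had 4.48, and Ldlrad4 had 0.88.

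Of the 5 adaptors that carry the signal into the cell, 4 were called higher in Positive, against 24.0% of all genes tested. The median log2 fold change over the 5 was 1.22. Myd88, used by all receptors but Tlr3, had 109.7, 137.0 and 109.8 scaled reads in Input and 445.2, 526.7 and 376.0 in Positive, with a log2 fold change of 1.91 ± 0.16 (SE), or 3.76-fold. Tirap, which bridges Tlr2 and Tlr4 to Myd88, had 32.6, 26.3 and 39.9 scaled reads in Input and 78.3, 94.9 and 56.1 in Positive, with a log2 fold change of 1.22 ± 0.27. Ticam1, the adaptor of Tlr3, had 83.6, 87.4 and 69.2 scaled reads in Input and 149.3, 160.0 and 121.5 in Positive, with a log2 fold change of 0.84 ± 0.19 (edgeR adjusted p = 0.00277). Ticam2 (TRAM), which links Tlr4 to Ticam1, had 15.8, 7.52 and 13.8 scaled reads in Input and 122.1, 181.4 and 108.4 in Positive, and its log2 fold change of 3.46 ± 0.32 was the largest of the 5 adaptors. Ticam2 passed the filter on low values through Positive alone, which favours genes higher there, so its call is a description. Sarm1, a neuronal adaptor known for axon degeneration, was close between Input (576.6 ± 27.6 scaled reads, SD, n = 3) and Positive (570.0 ± 6.01), and its fitted log2 value was -0.02 ± 0.09 (SE; edgeR adjusted p = 0.897).

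Of 67 listed pathway genes, 57 were measured, and 40 of these were called higher, 4 lower and 13 not called, with a median log2 fold change of 0.82, where 24.0% of all genes tested were called higher and 22.0% lower. Of the 57, 8 passed the filter on low values through Positive alone (Cd180, Cd36, Ticam2, Btk, Irak3, Sigirr, Il1rl1 and Il1a), so the counts are a description. Among relatives of the co-receptors and ligand carriers, 4 of 5 were higher. Ly86 (4.92) and Cd180 (4.65), which form a complex related to that of Tlr4 with Ly96, had large log2 fold changes, and the alarmin Hmgb1 a small one (0.52). Lbp, the carrier that passes lipopolysaccharide to Cd14, was lower, at 246.5 ± 40.3 scaled reads in Input against 105.8 ± 9.83 in Positive (mean ± SD), a log2 fold change of -1.23 ± 0.17 (SE; edgeR adjusted p = 6.04e-05). Of 6 chaperone and transport genes, 5 were higher. Unc93b1, which carries the endosomal receptors out of the endoplasmic reticulum, was 16.5-fold higher in Positive (4141 ± 848 scaled reads, against 250.8 ± 11.5 in Input, mean ± SD), while the folding chaperone Hsp90b1 and its cofactor Cnpy3 had log2 fold changes of 0.52 and 0.51. Of 10 endosomal proteases and nucleases, which cut the receptors or their ligands, 8 were higher, with log2 fold changes of 4.72 for Ctss and 1.38 for Ctsb. Pld3 (0.20) was not called, but was called higher (0.29, edgeR adjusted p = 0.0415) without Input 201. Ctsk was lower at -0.98 ± 0.33 (SE; edgeR adjusted p = 0.0292), a call that was lost with DESeq2 (0.0541) and without Input 201 (0.0517), Input 207 (0.161), Positive 207 (0.0744) or Positive 208 (0.0716).

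Kinases and ubiquitin ligases downstream of the adaptors were mixed, with 6 of 15 higher, 2 lower and 7 not called, and a median log2 fold change of 0.16. The most abundant were Traf3 (-0.55 ± 0.09, SE), Tab2 (0.54 ± 0.08) and Ikbkb (0.39 ± 0.10), and Chuk was also lower (-0.46 ± 0.11). All 5 transcription factors were higher, with log2 fold changes of 4.45 for Irf5, which acts below Myd88, 1.81 for Nfkb1 and 1.14 for Rela. Of 10 negative regulators, 7 were higher, including Rnf216 (0.46 ± 0.08), and the abundant Tollip (0.09 ± 0.07) and Cyld (0.02 ± 0.07, and -0.05 under scaling to the total count) were not called. Of 9 cytokine and chemokine genes that the pathway induces, only Il1a was measured, with 5.62 ± 2.30 scaled reads in Input against 56.8 ± 10.6 in Positive (mean ± SD), 9.85-fold (it too passed the filter through Positive alone), and the other 8 (Tnf, Il1b, Il6, Il12b, Ifnb1, Ccl3, Ccl4 and Cxcl10) were not analysed here.

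**Figure D5:**
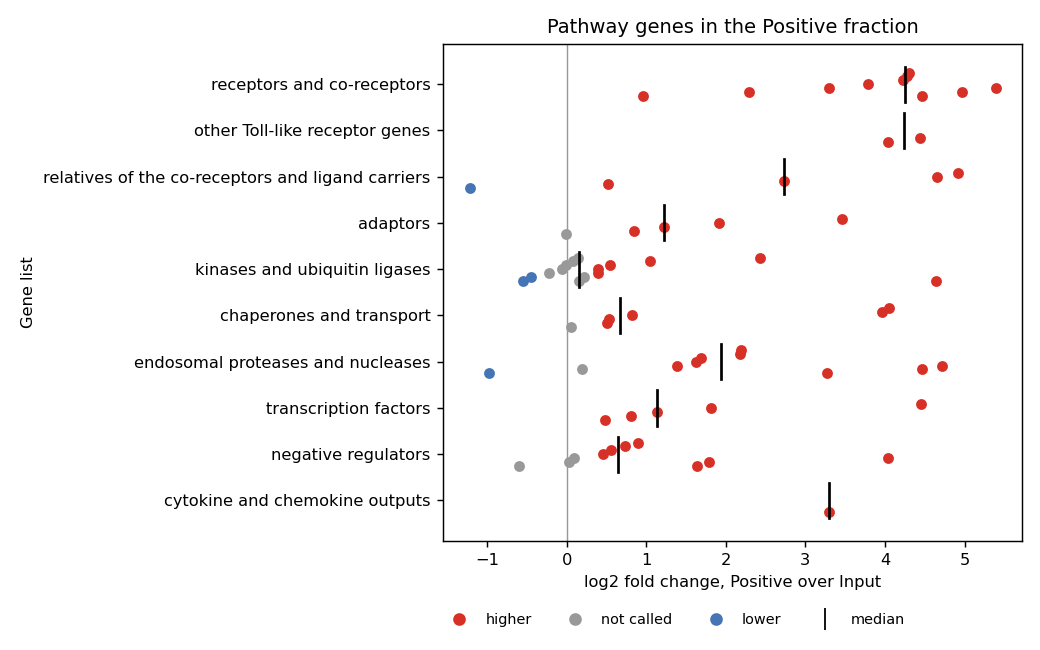
Log2 fold change, Positive over Input, of the receptors and co-receptors and of the pathway genes by list; red points were called higher, blue lower and grey not called (edgeR adjusted p under 0.05), and black lines are list medians. The median is 4.25 for the receptors and co-receptors, 1.22 for the adaptors and 0.16 for the kinases and ubiquitin ligases.

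Markers of other cells were measured beside these values. All 6 border macrophage markers were called higher, against 24.0% of all genes tested (median log2 fold change 4.17, summed scaled reads 185.0 to 236.4 in Input and 2550 to 5586 in Positive). Among them, Lyve1 and Pf4 passed the filter through Positive alone. The part of border macrophage RNA in the receptor values was not tested. All 6 endothelial markers were higher (median 1.97, 1283 to 1673 in Input and 3783 to 7429 in Positive). Of 6 monocyte markers, 3 were in the table, with Fn1 and Ly6c2 higher and Vcan lower (summed scaled reads 758.6 to 887.5 in Input and 923.6 to 1729 in Positive). Ly6c2, which passed the filter through Positive alone, had 2 to 12 raw reads in Input and 20 to 24 in Positive. The sum is thus mostly Fn1 and Vcan, and how much of it came from monocytes was not tested. Ccr2, Chil3 and Plac8 were not analysed here. The neutrophil markers Camp, Ltf, Ly6g, Ngp, S100a8 and S100a9 and the lymphocyte markers Cd3e, Cd3g, Cd79a and Nkg7 were not analysed here, and the lymphocyte marker Cd79b, which passed the filter through Positive alone, had 1.88 to 6.12 scaled reads in Input and 39.5 to 82.4 in Positive. Mural markers (1 of 6 higher, 1 lower) and astrocyte markers (1 of 6 higher, 1 lower) had medians of -0.29 and -0.26, neuronal markers (2 of 6 higher) 0.14, and all 6 oligodendrocyte markers were lower (median -2.68).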

How the data were processed

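RNA-seq libraries of the Input and Positive TRAP fractions of hippocampus from 3 mice were analysed, grouped by their fraction label. The authors prepared directional poly(A) libraries, trimmed reads, aligned them with strand to mm10 in Strand NGS and counted them per gene. Values in the deposited raw columns are expected counts, which need not be whole (17.3% to 23.1% were), and the table keeps genes that reach 20 raw reads throughout a fraction. Among whole values under 60, 64.7% to 69.3% were even, and whether both mates of a pair were counted is not settled. The deposited normalized columns are log2 values after DESeq scaling.

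Counts were rounded and tested in R 4.3.3 with edgeR 4.0.16 (quasi-likelihood, unpaired as in the study, RLE scaling, SE from the F statistic), after a filter at 20 scaled reads that removed 45 genes. Exon lengths are from GENCODE M21, in which 92.7% of the table's genes had the same position. Alternatives used limma 3.58.1, DESeq2 1.42.0, other scalings and filters, and each library left out. Fractions with the same number came from the same animal, and their deviations from the group means correlated at 0.27, 0.08 and 0.15. Between fractions of different animals the correlations ran from -0.18 to 0.05. The method was tried on simulated data with 200 changes, and its accuracy at the larger number of calls found here was not tested. Named genes were all receptor genes and adaptors in the table, the 3 most abundant genes of each other pathway list, and genes called against a list's median. The genes and lists were chosen with earlier results of these data known. Reads without molecular identifiers are not independent molecules, so precision from read numbers covers counting error only. Some genes that these lists and rules took are not reported here.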

Additional observations from a re-analysis of the deposited data

How the results depend on the processing

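The 10 receptor and co-receptor genes were called higher under every alternative that tested them. Scaling was by TMM, total count or the authors' size factors. Other fits used no filter, DESeq2, limma on the deposited log2 values, halved reads or each library left out. A filter at 100 scaled reads removed Tlr1, Tlr6 and Ly96 and gave 7. Over these fits the log2 fold change ran from 0.76 to 1.13 for Tlr3, 1.97 to 2.78 for Ly96 and 4.80 to 6.35 for Tlr6. The genes that passed the main filter through Positive alone, 7 of the 10, were favoured to be higher in each fit. Leaving out the filter does not remove this, since the table itself keeps genes by their reads in either fraction. At 100 scaled reads, only Tlr3 was above the limit in Input. The repeated calls of genes that entered through Positive alone are therefore a description. With the animal as a replicate block, 10 of the 10 genes, 40 higher and 4 lower pathway genes, and 3903 higher and 3664 lower genes of all tested were called, and no call on a named gene changed. The paired test of the family shares cannot go below 0.25. Total count scaling moved the median log2 fold change of all genes from -0.01 to -0.09. The share of Tlr1 in the family, Positive minus Input, was -0.51 percentage points, turned to 0.0388 when reads were not divided by length, and ran from -0.867 to 0.0770 as each library was left out, above 0 without Input 207. That of Tlr4 kept its sign, at 0.94 percentage points, and was 2.01 when reads were not divided by length. The sign turned for 2 genes that were never called, Sarm1 (-0.0474 to 0.0225 as each library was left out, above 0 without Input 208) and Cyld (-0.0527 under total count scaling, and -0.00274 to 0.0558 as each library was left out, below 0 without Positive 208). The pseudocount moved the mean log2 ratio over animals of Tlr6 from 5.18 to 6.53 (0.1) or 3.79 (5). Tlr6 rests on 6 Input reads, so its fold is not well measured at this depth.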
